A study of Mus musculus with 23 samples.

Results

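The calcium/calmodulin-dependent kinases were followed here in the CA3 region of the hippocampus, because the transgene of the UBB+1 tg mouse is driven by the promoter of one of them, CaMKIIα. Their genes were taken as Camk2a, Camk2b, Camk2d, Camk2g, Camk1, Camk1d, Camk1g, Camk4, Camkk1 and Camkk2, and every probe set annotated to 1 of these genes alone was used. A probe set is the group of short probes by which an Affymetrix array reads a transcript. 31 probe sets of 9 genes were found among 45265 on both kinds of array, 17 on MOE430A and 14 on MOE430B, and none was annotated to Camkk1.

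These kinases read out calcium that enters a neuron: calcium-loaded calmodulin binds them and relieves the block on their catalytic site. The CaMKII subunits encoded by Camk2a, Camk2b, Camk2d and Camk2g assemble into large holoenzymes that phosphorylate each other and stay active after calcium has fallen, a property known for its part in long-term potentiation at hippocampal synapses. Camk1, Camk1d, Camk1g and Camk4 encode single-subunit kinases that are switched on further when the upstream kinases encoded by Camkk1 and Camkk2 phosphorylate them.

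The UBB+1 tg mice were heterozygous and came from a single transgenic line that expresses human UBB+1, a frameshift mutant of ubiquitin that inhibits the proteasome in part, in neurons after birth and most strongly in those of the forebrain. They and their non-transgenic littermates, called wild type here, were on a C57BL/6J background and 18 months old, with no treatment, and their sex is not given in the sources used here. CA3 was cut by laser from sections stained with cresyl violet, and its RNA was amplified in 2 rounds and hybridised to 1-colour arrays. 6 tg and 5 wild-type mice were measured on MOE430A and 6 and 6 on MOE430B, 12 mice in all, of which wt331 was on MOE430B alone. All values are log2 intensities, differences are tg minus wild type, and the brightness of one probe set against another is no measure of how much of each transcript was present.

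The arrays of each kind were divided into 3 sets by clustering on their overall similarity. Differences between the sets are therefore in part fixed by that division and are given as a description, with no test. For the same reason, a fit that takes the set into account (a block) can have a smaller standard error. The sets also differed in how far beta-actin and Gapdh read brighter at their 3′ than at their 5′ end, a difference that widens with RNA degradation and with short amplification products. The 3′ minus 5′ difference was 2.65 to 3.43 in the low set of MOE430A (tg271, wt287 and wt290), 4.44 to 4.62 in the middle set (4 tg and 2 wild-type mice) and 6.05 to 6.10 in the high set (tg270 and wt289). On MOE430B it was 2.41 to 3.73, 4.47 to 4.97 and 6.22 to 6.39 for the same mice, with wt331 in the middle set. Of the markers fixed for CA3, 4 of 4 measured on MOE430A and 2 of 3 on MOE430B lay above the array's median probe set. So did 2 of 2 and 1 of 1 for CA2, 6 of 7 and 2 of 2 for interneurons and, on MOE430A, 5 of 6 for microglia and 4 of 5 for oligodendrocytes, against 1 of 4 and 2 of 4 for dentate granule cells, so that this count does not set CA3 apart. Each marker gene was read by its brightest probe set on each array. No marker passed the false discovery rate of 10%, but neither did any other probe set tested on either array, so that this does not speak for like tissue in the genotypes. The only marker at an unadjusted limma p under 0.05 was the CA2 gene Cacng5 on MOE430A (log2 fold change 0.71). Its genotypes did not overlap, as was the case for 0.234% of all probe sets on that array. The CA2 genes Rgs14 (MOE430A) and Amigo2 (MOE430B) gave 0.27 and -0.07. Larger but less precise differences on MOE430A were those of the neuron marker Tubb3 (-1.02, standard error 0.56) and the interneuron marker Sst (-0.82, standard error 0.44). Of the markers of these lists measured there, 3 of 5 for neurons and 4 of 7 for interneurons were higher in tg mice.

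The transgene was visible in every tg mouse measured on MOE430A. The probe set that by the study's methods detects a transcribed stretch of the CaMKIIα promoter in the transgene is annotated to Arsi, the direct neighbour of Camk2a in RefSeq. Its log2 intensity was 8.45 in tg270, 9.12 in tg271, 9.16 in tg273, 8.89 in tg274, 9.24 in tg276 and 9.34 in tg277. It was 6.61 in wt287, 6.85 in wt289, 6.41 in wt290, 6.74 in wt291 and 6.70 in wt321. The genotypes lay far apart, with a 5.17-fold difference (two-sided exact permutation test over 462 splits, p = 0.00216, the smallest this design allows). The genotype of wt331 was not checked in this way.

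None of the kinase probe sets differed between the genotypes at a false discovery rate of 10% in limma, with adjusted p of 0.984 to 0.995 on MOE430A and 1.000 on MOE430B. The same held for all 22625 and 22511 probe sets tested on the arrays, of which 0% and 0% passed. At an unadjusted p under 0.05 there were 2 of 17 kinase probe sets on MOE430A, where 3.48% of all probe sets lay, and 0 of 14 on MOE430B, where 3.05% lay. Past 1.5-fold in either direction there was 1 on MOE430A (1.68% of all) and 1 on MOE430B (0.56% of all). In 0 of 17 and 0 of 14 were all tg values above or below all wild-type values, against 0.234% and 0.142% of all probe sets. The signs were mixed, with 6 probe sets higher and 11 lower in tg mice on MOE430A and 6 higher and 8 lower on MOE430B, and the medians of -0.01 and -0.04 were close to those of all probe sets, 0.0048 and -0.0055. The 95% confidence intervals reached on average 0.47 log2 units to either side on MOE430A and 0.39 on MOE430B, but precision differed widely between probe sets, with standard errors of 0.069 to 0.59 and of 0.061 to 0.62. In laser-cut tissue, fewer cells of a type and less RNA per cell cannot be told apart.

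**Figure D1:**
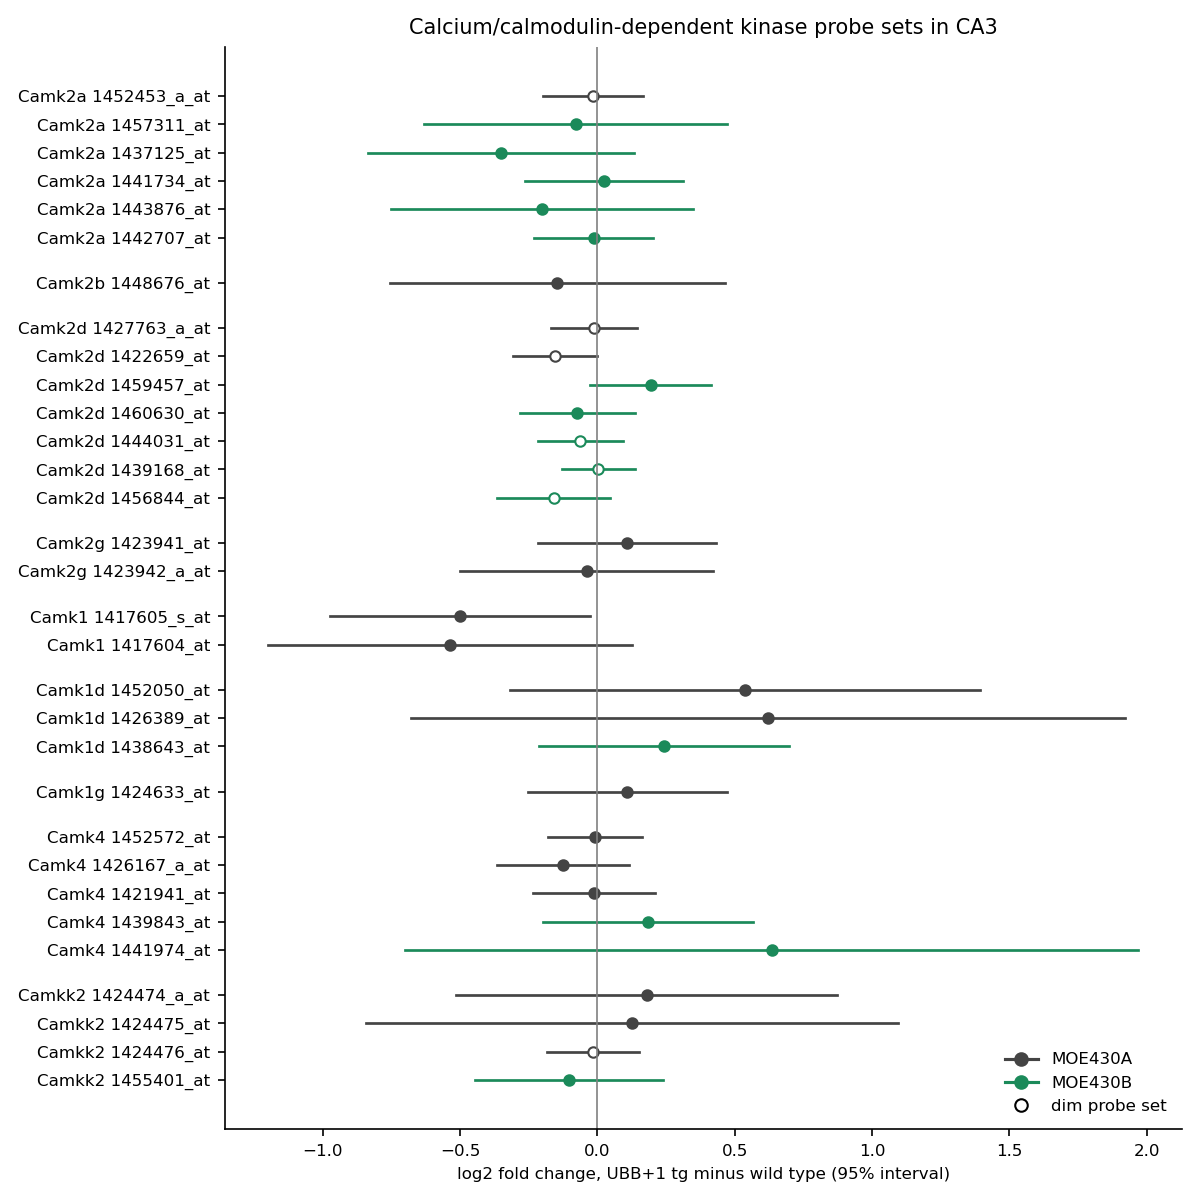
Log2 fold change (tg minus wild type) of each of the 31 kinase probe sets, with its 95% confidence interval from limma. Points in grey are MOE430A (6 against 5 mice), points in green MOE430B (6 against 6), and open points are dim probe sets. The interval leaves out 0 only for Camk1 1417605_s_at and the dim Camk2d 1422659_at, and the widest intervals belong to Camk1d 1426389_at and Camk4 1441974_at.

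Camk2a encodes CaMKIIα, the main CaMKII subunit of excitatory forebrain neurons, whose promoter the transgene borrows. The gene's own probe sets showed nothing like the step in the reporter: of 6, 5 were slightly lower in tg mice and 1 slightly higher, from -0.35 to 0.02. On the brightest of them, 1457311_at on MOE430B, the tg mice had a lowest, median and highest log2 intensity of 10.16, 10.67 and 10.87, and wild-type mice of 9.46, 10.90 and 11.33. The wild-type values enclosed all tg values, since wt289, of the high array set, was the lowest mouse and wt291 the highest. The log2 fold change was -0.08 (standard error 0.25). It averaged over opposite differences within the array sets, of -0.25 in the low, -0.39 in the middle and 1.24 in the high set, the last of 1 mouse of each genotype. By quantitative PCR the study found Camk2a mRNA raised in tg mice, but in the whole hippocampus and in younger, male mice.

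The Camk2a probe set with the most negative difference was 1437125_at on MOE430B, at -0.35 (standard error 0.22, 95% confidence interval -0.84 to 0.13, limma adjusted p = 1.000). Its tg values were 7.004 at the lowest, 8.05 at the median and 8.15 at the highest, and its wild-type values 7.45, 8.39 and 8.55. Each of the 6 tg mice was below the mean of wild type, but the genotypes overlapped, since wt289 was lower than every tg mouse other than tg270, and wt321 (8.08) was lower than tg273, tg274 and tg276. Of these, wt289 and tg270 belong to the high array set. Taken within the sets, the difference was -0.53, -0.22 and -0.45 in the low, middle and high set, and blocking on the array set left it at -0.33 with a smaller standard error of 0.09 (limma adjusted p = 0.90). Without tg270 it was -0.18.

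The other Camk2a probe sets gave no direction that all settings shared. On 1441734_at the tg mice ran from 7.11 over a median of 7.40 to 7.84 and the wild-type mice, much more tightly, from 7.29 over 7.48 to 7.52, with a difference of 0.02 (standard error 0.13). On 1443876_at the values were 6.55, 7.29 and 7.38 in tg and 6.83, 7.20 and 8.58 in wild-type mice. The difference of -0.20 (standard error 0.25) came with 1 wild-type mouse, wt331, standing apart from the next, wt291 at 7.35, and without it the difference was 0.039. On 1442707_at the tg mice had 5.53, 5.60 and 5.79 and the wild-type mice 5.33, 5.67 and 5.89, with a difference of -0.01 (standard error 0.10). The only Camk2a probe set on MOE430A, 1452453_a_at, was dim, which here means a mean over the arrays in the lowest 25% of probe sets. It read 3.81, 3.91 and 4.09 in tg mice and 4.09 in wt287, 3.91 in wt289 and in wt290, 3.70 in wt291 and 4.0 in wt321.

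**Figure D2:**
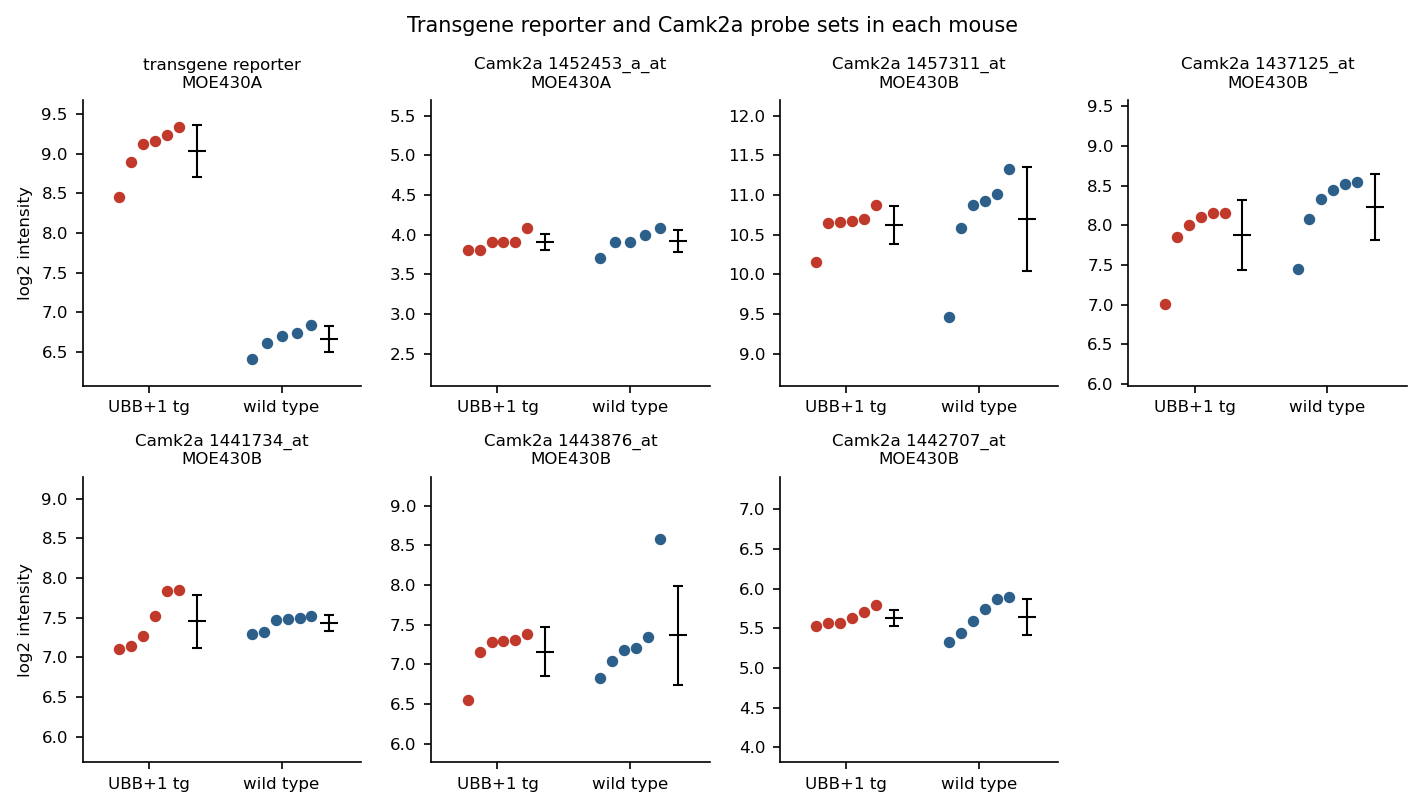
Log2 intensity of the transgene reporter probe set and of the 6 Camk2a probe sets in each mouse, with 1 point per mouse (tg in red, wild type in blue) and bars for the mean and SD of the genotype. All panels span the same number of log2 units. The genotypes are apart on the reporter (8.45 to 9.34 against 6.41 to 6.85) and overlap on every Camk2a probe set.

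Camk2b encodes CaMKIIβ, the subunit that ties the holoenzyme to actin. Its single probe set, 1448676_at, read 8.29, 9.46 and 10.09 as the lowest, median and highest of the tg mice, and 9.87 in wt287, 9.63 in wt289, 9.78 in wt290, 9.37 in wt291 and 8.99 in wt321. The difference of -0.15 (standard error 0.28) rested on tg270, the lowest mouse, and without it was 0.072.

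Camk2d, which encodes CaMKIIδ, the subunit best known from the heart, had 7 probe sets, of which 5 were dim. Their differences ran from -0.16 to 0.19, with 2 higher and 5 lower. On MOE430B, 1460630_at gave -0.073 (standard error 0.096), and the dim 1444031_at, 1439168_at and 1456844_at gave -0.062, 0.0028 and -0.16. One of them, 1422659_at on MOE430A, was 1 of the 2 kinase probe sets at an unadjusted p under 0.05. Its difference was -0.15 (standard error 0.07, limma adjusted p = 0.984). Its mean lies at percentile 1.87 of the array, its whole-number intensities take few values, and tg mice read from 3.46 over a median of 3.58 to 3.58, against 3.58 in wt287 and wt291, 3.70 in wt290 and 3.81 in wt289 and wt321. Under a floor for dim values no kinase probe set on MOE430A had an unadjusted p under 0.05. The brightest Camk2d probe set, 1459457_at on MOE430B, went the other way, with 6.19, 6.32 and 6.68 in tg and 5.89, 6.22 and 6.43 in wild-type mice. Each of the 6 tg mice exceeded the wild-type mean there, by 0.19 on average (standard error 0.10, limma adjusted p = 1.000), and the differences within the 3 array sets were 0.29, 0.18 and 0.037. The brighter of the pair on MOE430A, 1427763_a_at, read 4.09, 4.25 and 4.32 in tg mice, while the wild-type mice read 4.32 in wt287 and wt321, 4.25 in wt289 and wt290 and 4.09 in wt291.

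Camk2g encodes CaMKIIγ, which carries calmodulin from the synapse to the nucleus. On its brighter probe set, 1423941_at, tg mice read 7.92, 8.29 and 8.57, and wild-type mice 8.13 (wt287), 8.45 (wt289), 7.74 (wt290), 8.22 (wt291) and 8.15 (wt321). The genotypes overlapped almost fully, with a difference of 0.11 (standard error 0.15), and the other probe set, 1423942_a_at, gave -0.040 (standard error 0.21).

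Camk1, which encodes CaMKI, a kinase of the cytoplasm that acts in axon growth and dendrite formation, had the most negative differences among these kinases. Its probe sets 1417605_s_at and 1417604_at were lower in tg mice by log2 fold changes of -0.50 (standard error 0.22, 95% confidence interval -0.97 to -0.03) and -0.54 (standard error 0.30, 95% confidence interval -1.20 to 0.13), with a limma adjusted p of 0.984 for both, so that neither passed the test. On 1417605_s_at the tg mice read 7.14, 7.71 and 7.79, and the wild-type mice 8.11 (wt287), 7.85 (wt289), 8.99 (wt290), 7.77 (wt291) and 7.84 (wt321). All 6 tg mice lay below the wild-type mean and only wt291 lay within the range of tg values. On 1417604_at the tg mice read 4.52, 5.27 and 5.43, and the wild-type mice 6.41 (wt287), 4.91 (wt289), 6.54 (wt290), 5.21 (wt291) and 5.39 (wt321). Again all tg mice were below the wild-type mean, which wt287 and wt290 raised. Probe sets ending in _s_at can share probes between transcripts. As for every gene here, the probe sets were fitted apart. Averaged, the 2 of Camk1 gave -0.52 (standard error 0.25, limma adjusted p = 0.97).

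Both wild-type mice that were high for Camk1 belong to the low array set, which held 2 of the 5 wild-type and 1 of the 6 tg mice. On 1417605_s_at the difference was -0.77 in the low set, -0.12 in the middle set and -0.71 in the high set, and on 1417604_at it was -1.19, -0.02 and -0.38. Tg mice were therefore lower in each set, by little in the middle set that held most mice. Blocking on the array set, the differences were -0.41 (standard error 0.17) and -0.40 (standard error 0.17), with limma adjusted p of 0.69 for both. The 3′ minus 5′ difference as a covariate gave -0.38 and -0.32. Without wt290 they were -0.28 and -0.32.

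Camk1d encodes CaMKIδ, a relative of CaMKI found in hippocampal neurons. All 3 of its probe sets were higher in tg mice, by 0.54 (1452050_at, standard error 0.39) and 0.62 (1426389_at, standard error 0.59) on MOE430A and by 0.24 (1438643_at, standard error 0.21) on MOE430B, and none passed the test. The second was the only kinase probe set on MOE430A past 1.5-fold. Tg mice were not higher throughout: in the high array set, of 1 mouse of each genotype, tg270 was lower than wt289 on all 3, by -0.44, -0.14 and -0.23 in that order. On 1452050_at the tg mice read 9.88, 10.87 and 11.48, and the wild-type mice 9.36 (wt287), 10.32 (wt289), 9.52 (wt290), 10.51 (wt291) and 11.24 (wt321). Among wild-type mice alone, the middle set (2 mice) was above the low set (2 mice) by 1.44 on 1452050_at and by 1.21 on 1426389_at, more than the genotypes differed on either. Under a block for the array set, the genotype differences were 0.19 (standard error 0.19) and 0.25 (standard error 0.14), whereas array weights gave 0.91 and 1.05. Leaving out 1 mouse, they ran from 0.33 (without wt287) to 0.80 (without wt321) on 1452050_at and from 0.28 (without wt289) to 1.05 (without tg270) on 1426389_at. On 1438643_at the tg mice read 4.22, 4.62 and 5.59 and the wild-type mice 4.17, 4.38 and 4.98. There the middle set was 0.38 lower than the low set among wild-type mice (middle minus low -0.38), and the block gave 0.34 (standard error 0.17, limma adjusted p = 0.90). Without tg271 the difference was 0.070.

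**Figure D3:**
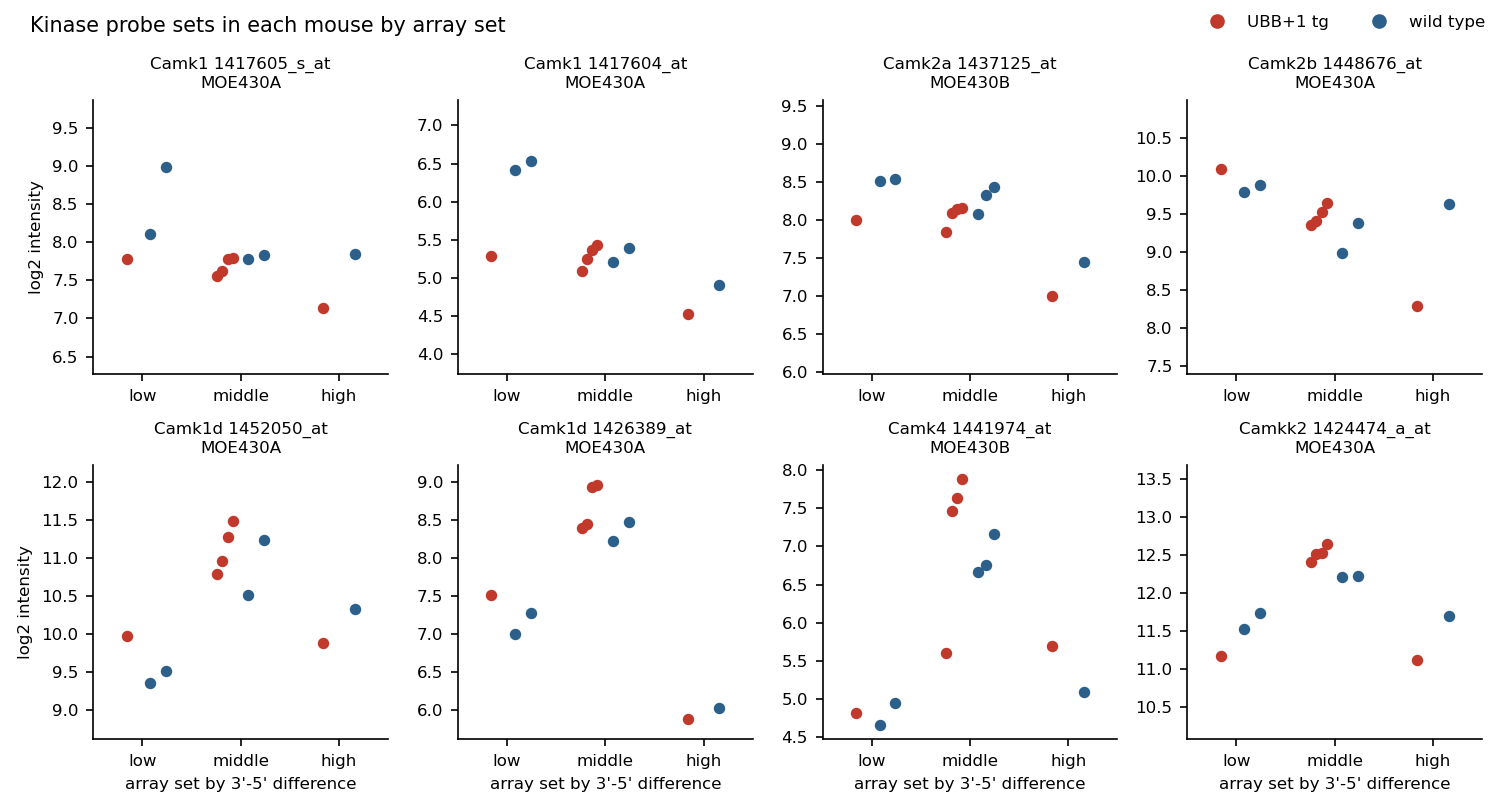
Log2 intensity of 8 kinase probe sets in each mouse (tg in red, wild type in blue), placed by array set, from the low to the high 3′ minus 5′ difference. All panels span the same number of log2 units. The probe sets of the lower row have the highest mouse of each genotype in the middle set, which among wild-type mice was above the low set by 1.44 and 1.21 for Camk1d, 2.07 for Camk4 and 0.58 for Camkk2, and tg means lie below wild-type means in all 3 sets for both Camk1 probe sets and Camk2a 1437125_at.

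Camk1g, which encodes the membrane-anchored CaMKIγ, was read by 1424633_at. Tg mice had 8.26, 8.50 and 8.95, and wild-type mice 8.49 (wt287), 8.15 (wt289), 8.94 (wt290), 8.55 (wt291) and 8.08 (wt321). The difference was 0.11 (standard error 0.17), less than the SD of either genotype.

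Camk4 encodes CaMKIV, the nuclear kinase that phosphorylates the transcription factor CREB. Its probe sets on MOE430A were among the steadiest of the family, with differences of -0.0086 (1452572_at, standard error 0.079), -0.13 (1426167_a_at, standard error 0.11) and -0.012 (1421941_at, standard error 0.10). On 1452572_at the tg mice read 6.93, 7.06 and 7.22, and the wild-type mice 7.15 (wt287), 6.99 (wt289), 6.95 (wt290), 7.23 (wt291) and 7.0 (wt321). The genotypes shared their range, and the confidence interval of the difference was -0.18 to 0.16. On MOE430B, 1439843_at read 9.62, 10.04 and 10.62 in tg and 9.504, 9.81 and 10.52 in wild-type mice, with a difference of 0.18 (standard error 0.18). The highest mouse of each genotype there was the mouse of the high array set, tg270 and wt289. The other, 1441974_at, had the largest difference of all kinase probe sets, 0.63 (standard error 0.62), and was the only one past 1.5-fold on MOE430B. Its tg values of 4.81, 6.58 and 7.89 and wild-type values of 4.65, 5.88 and 7.17 spread widely within each genotype. The middle set exceeded the low set by 2.07 among wild-type mice, and under the block the genotype difference was 0.28 (standard error 0.33).

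Camkk2 encodes CaMKKβ, which activates CaMKI, CaMKIV and the energy sensor AMPK. Its brightest probe set, 1424474_a_at, read 11.11, 12.46 and 12.65 in tg mice, and 11.53 (wt287), 11.70 (wt289), 11.74 (wt290), 12.21 (wt291) and 12.22 (wt321) in wild-type mice. The tg mice formed separate clusters here, with the 4 of the middle set above every wild-type mouse and tg270 and tg271 below every one. The difference of 0.18 (standard error 0.31) averaged over these opposite positions: it was -0.47 in the low, 0.30 in the middle and -0.59 in the high set, and -0.081 under the block. The probe set 1424475_at gave 0.13 (standard error 0.44) overall and -0.14 under the block. The dim 1424476_at gave -0.02 (standard error 0.08). On MOE430B, 1455401_at read 8.43, 9.0 and 9.31 in tg and 8.57, 9.01 and 9.41 in wild-type mice, with a difference of -0.10 (standard error 0.16).

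Over the family, the sign of the genotype difference was the same in all 3 sets for 4 of 17 on MOE430A, all of them lower in tg mice, and for 5 of 14 on MOE430B, 3 higher and 2 lower. Of all probe sets, 25.5% and 22.7% kept their sign in this way.

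The partners of these kinases were taken as 5 lists, in which 32 genes measured by 86 probe sets are described here. None of the 86 passed the false discovery rate of 10% in limma. At an unadjusted p under 0.05 there were 4 of 51 on MOE430A and 5 of 35 on MOE430B, where 3.48% and 3.05% of all probe sets lay, 5 of them higher and 4 lower in tg mice. The lists were chosen with earlier results of these data known, so that these shares are a description. Of the inhibitors and kinase-like relatives, 1 of 16 probe sets was higher and 1 lower at that p, of the phosphatases 1 of 9 was higher, of the anchors and scaffolds 1 of 17 was higher and 2 were lower, of the targets 2 of 41 were higher, and of calmodulin-binding proteins 1 of 3 was lower. The medians of the lists were between -0.20 and 0.10.

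Camk2n2, which encodes an endogenous inhibitor of CaMKII, had the smallest p of the partners. On 1429204_at tg mice read 8.97, 9.32 and 9.83 and wild-type mice 9.53, 10.09 and 10.41. 5 of the 6 tg mice lay below every wild-type mouse, with tg271 the exception. The log2 fold change was -0.67 (standard error 0.17, 95% confidence interval -1.05 to -0.30, limma adjusted p = 1.000), and it was -0.51, -0.47 and -1.0 within the low, middle and high set. The related inhibitor Camk2n1 had differences of -0.08 (1456609_at, standard error 0.17) and -0.03 (1440455_at, standard error 0.32).

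Ppm1e encodes a phosphatase that removes the activating phosphate from CaM kinases. On 1434990_at tg mice read 9.61, 9.75 and 9.97 and wild-type mice 8.86, 9.31 and 9.67, so that 5 of 6 tg mice were above every wild-type mouse. The log2 fold change of 0.49 (standard error 0.14, limma adjusted p = 1.000) was uneven over the array sets, at 1.05, 0.32 and 0.12 from the low to the high set. Its relative Ppm1f gave 0.05 (1454934_at, standard error 0.22) and -0.06 (1430631_at, standard error 0.08).

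Dapk1 encodes a calmodulin-regulated kinase of cell death, and its genotypes did not overlap, as was the case for 0.234% of all probe sets on MOE430A. Its probe set 1426915_at read 8.63, 8.79 and 9.07 in tg mice, and 8.63 (wt287), 8.50 (wt289), 8.61 (wt290), 7.93 (wt291) and 8.47 (wt321) in wild-type mice. The gap was narrow, the lowest tg and highest wild-type value being equal to 2 decimals. The log2 fold change was 0.38 (standard error 0.13, limma adjusted p = 0.984), with 0.19, 0.54 and 0.58 in the 3 sets, and the second Dapk1 probe set, 1427358_a_at, gave 0.08 (standard error 0.14).

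Nrgn encodes neurogranin, which holds calmodulin at the postsynapse when calcium is low. On 1423231_at tg mice read 10.87, 11.18 and 11.33, and wild-type mice 11.41 (wt287), 11.63 (wt289), 11.87 (wt290), 11.30 (wt291) and 11.17 (wt321). All 6 tg mice were below the wild-type mean, by a log2 fold change of -0.34 (standard error 0.13, limma adjusted p = 0.984). Of the further probe sets at an unadjusted p under 0.05, those of the synaptic exchange factor Kalrn went both ways, -0.27 (1429796_at, standard error 0.09) and 0.28 (1448023_at, standard error 0.12). The other Kalrn probe sets gave -0.11 (1436066_at), 0.29 (1440970_at) and -0.0015 (1457690_at). Its dim ones gave 0.0027 (1442554_s_at), -0.028 (1457899_at) and -0.091 (1442341_at). Mef2a, a transcription factor downstream of CaM kinases, was at 0.44 (1427185_at, standard error 0.19). Its other probe sets gave 0.53 (1421252_a_at), 0.70 (1427186_a_at), 0.58 (1452347_at), 0.0047 (1442623_at) and -0.033 (the dim 1425426_a_at). The scaffold Dlg4 (1419581_at, -0.20, standard error 0.09) and the AMPK subunit Prkaa1 (1437539_at, 0.18, standard error 0.08) were at that p on dim probe sets. The brighter Dlg4 probe sets gave 0.036 (1419580_at) and -0.079 (1460261_at).

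**Figure D4:**
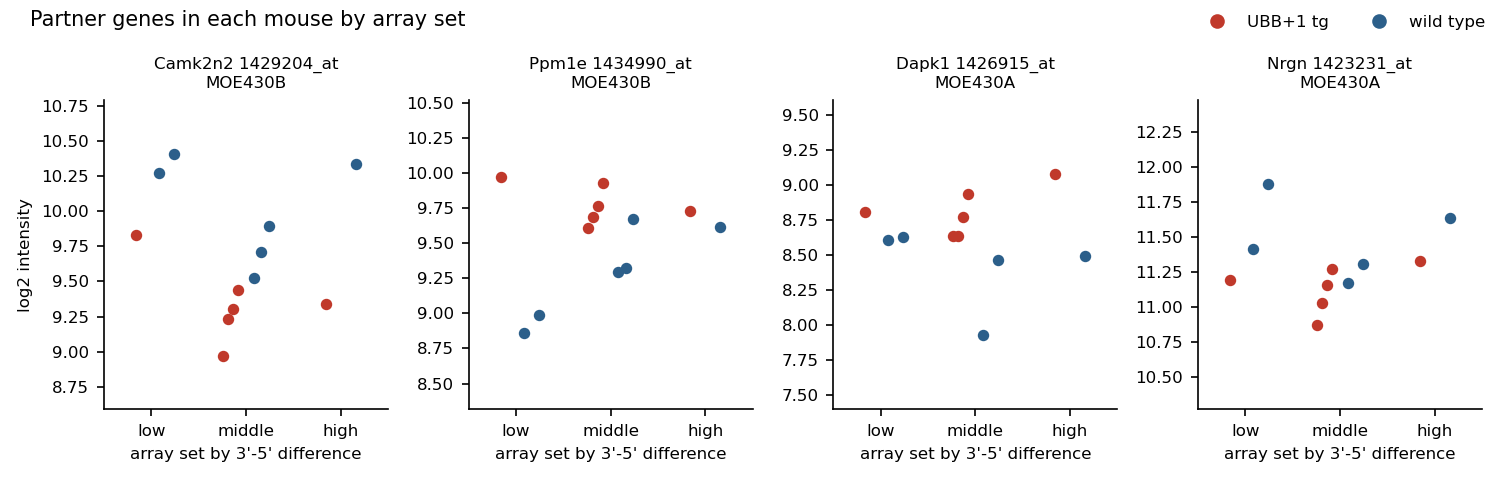
Log2 intensity of 4 partner probe sets in each mouse (tg in red, wild type in blue), placed by array set from the low to the high 3′ minus 5′ difference. All panels span the same number of log2 units. Tg means lie below wild-type means in all 3 sets for Camk2n2 and Nrgn and above them in all 3 for Ppm1e and Dapk1. The lowest limma adjusted p of the 4 was 0.984 without the array sets in the fit and 0.66 (Dapk1) with the array set as a block.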

How the data were processed

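Intensities were deposited by the authors as RMA output, for which background is removed, arrays of one kind are brought to common quantiles and the probes of a set are summarised (the version of RMA is not given in the sources used here). The authors deposited the MOE430A intensities as whole numbers, of which log2 was taken here, and the MOE430B values as log2 intensities already made by RMA. By the platform annotation, 20380 probe sets name 1 gene, 691 several and 1555 none on MOE430A, and 14661, 245 and 7605 on MOE430B. The 64 control probe sets of each array and, after its own test, the transgene reporter (annotated to Arsi) were left out, which left 22625 and 22511. Genotypes were compared on each array with limma (version 3.58.1, R version 4.3.3; lmFit, then eBayes), the p-values being adjusted by the method of Benjamini and Hochberg over all these probe sets and read at a false discovery rate of 10%, as in the study's methods. The study's main software reads single probes and was not used here. With it the study reported genes regulated in CA3 at a false discovery rate under 10%, most of them upward. It states that limma on RMA values bore these results out. In the fit used here no probe set passed, and the cause of this difference was not tested. The fit was tested on simulated data. Unlike the deposited data, these had independent noise in every probe set and array and no array sets, and no result about the kinases rests on them. Each array is 1 mouse, and the number of mice limits the precision.

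The kinases, partner lists and markers were chosen with earlier results of these data known, as were the 3 array sets (complete-linkage clustering of arrays on 1 minus Pearson r). All kinase probe sets were named, with values per mouse (in groups of 6 the lowest, median and highest) for every Camk2a probe set, the brightest of each gene on each array and those at an unadjusted p under 0.05, and so were the partner probe sets under that p. Values per mouse of 1417604_at and 1441974_at and further probe sets of named partners were added after they had been seen. Pearson r between arrays of a kind ranged from 0.945 to 0.991 (MOE430A) and 0.936 to 0.987 (MOE430B), with no identical pair. As alternatives, dim probe sets were left out or low values raised to the 25th percentile of their array, arrays were quantile-normalized again or centred on their medians, limma was given an intensity trend or array weights, the 3′ minus 5′ difference entered as a covariate and the array set as a block, MOE430B was cut to the mice also on MOE430A, probe sets were averaged per gene, the false discovery rate was set to 5%, and each mouse was left out in turn.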

Additional observations from a re-analysis of the deposited data

Results flagged for a closer look

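Of 64 sets of values, each a kinase probe set or the transgene reporter in 1 genotype, 7 had a highest or lowest mouse set apart from the rest by Dixon's test, which chance alone gives in about 1 of 20. On Camk1 1417605_s_at these were tg270, the lowest tg mouse at 7.14, and wt290, the highest wild-type mouse at 8.99. On Camk2a they were tg271 on the dim 1452453_a_at (4.09, the highest), tg270 on 1437125_at (7.004, the lowest), tg276 on 1443876_at (6.55, the lowest), wt331 on the same probe set (8.58, the highest) and tg273 on 1457311_at (10.16, the lowest). tg270, of the high array set, was set apart on 2 probe sets, and tg271, tg273, tg276, wt290 and wt331 on 1 each.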

How the results depend on the processing

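No kinase or partner probe set passed the false discovery rate under any alternative run. Of 255 values of kinase probe sets under alternatives other than leaving out a mouse, 236 kept their direction and 19 changed sign, with a lowest adjusted p of 0.473, and the cause was not tested. Neither a second quantile normalization nor median centring changed a sign. The values that did were, with array weights, Camkk2 1424476_at (0.048) and 1455401_at (0.013), Camk2d 1427763_a_at (0.012) and Camk2a 1441734_at (-0.087). With the 3′ minus 5′ difference as a covariate they were Camk4 1421941_at (0.015), Camk2d 1427763_a_at (0.0029) and 1439168_at (-0.022), Camk2a 1452453_a_at (0.011), 1442707_at (0.028) and 1457311_at (0.040) and Camkk2 1455401_at (0.0082). With the array set as a block they were Camk2g 1423942_a_at (0.036), Camkk2 1424474_a_at (-0.081) and 1424475_at (-0.14), Camk2a 1452453_a_at (0.021) and Camk2d 1439168_at (-0.018), with the floor Camk2d 1456844_at (0.00084), and with only the mice also on MOE430A Camk2a 1442707_at (0.035) and 1443876_at (0.039). Camk2d averaged over its probe sets on MOE430B gave -0.019.

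The count of kinase probe sets at an unadjusted p under 0.05 on MOE430A, 2, was 1 with dim probe sets left out, 0 with the floor and 3 with array weights or with the 3′ minus 5′ covariate, and on MOE430B, 0, it was 1 with array weights, with the block and with only the mice also on MOE430A. Leaving out 1 mouse gave 0 (without tg273, tg276 or wt290) to 2 on MOE430A and 0 to 3 (without wt289) on MOE430B. The share of all probe sets under each of these settings is not given here, so that these counts do not set the kinases apart from other genes. Genotypes that did not overlap were 0 on MOE430A but 1 with median centring and 0 to 1 without a mouse (1 without wt291). Leaving out a mouse makes overlap less likely for any probe set, and the share of all probe sets is not given for these settings either.

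Leaving out 1 mouse changed 41 of 355 signs. The lowest and highest values were -0.055 and 0.092 for Camk2a 1441734_at, -0.077 and 0.035 for 1442707_at, -0.31 and 0.039 for 1443876_at, -0.072 and 0.025 for 1452453_a_at and -0.33 and 0.046 for 1457311_at. They were -0.29 and 0.072 for Camk2b 1448676_at, -0.052 and 0.016 for Camk2d 1427763_a_at, -0.022 and 0.038 for 1439168_at, -0.18 and 0.074 for Camk2g 1423942_a_at, -0.069 and 0.037 for Camk4 1421941_at, -0.041 and 0.033 for 1452572_at, -0.098 and 0.36 for Camkk2 1424475_at and -0.059 and 0.016 for 1424476_at. No paired analysis was possible because the mice of the 2 genotypes share no numbers in the labels.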
